A study of Mus musculus with 4 samples.

Results

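The genes described here are the 10 cyclins, cyclin-dependent kinases and activating phosphatase that take a cell through G1 and into S phase: Ccnd1, Ccnd2, Ccnd3, Ccne1, Ccne2, Ccna2, Cdk2, Cdk4, Cdk6 and Cdc25a. They were chosen by name, for their known role, out of the 34547 genes to which the measured transcripts belong. The choice was made with earlier results of these data known. Each gene was read as the sum of its transcripts. All 10 passed the filter on low counts, which left 16607 genes. RNA was sequenced from cartilage of C57BL/6 mouse forelimbs, from which chondrocytes had been cut out by laser microdissection. The hypertrophic group (HC, replicates 3 and 4) came from embryos at E15.5, and the proliferating group (PC, replicates 1 and 2) from embryos at E14.5, with 2 libraries each. No treatment or mutation is labelled in either group. The cell state and the age of the embryo differ together between the groups and cannot be told apart. Nothing in the labels says that the libraries of a group came from separate animals, so the p-values measure only the spread between these libraries, which may be technical.

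D-type cyclins are made in response to growth signals and bind the kinases Cdk4 and Cdk6, which phosphorylate the retinoblastoma protein and thereby free E2F transcription factors. E2F factors switch on genes for DNA synthesis, among them the E-type cyclins and cyclin A2, which bind Cdk2 and start and sustain S phase. Cdc25a removes the inhibitory phosphates from Cdk2. In the growth plate, chondrocytes divide in columns, then leave the cell cycle and enlarge as they become hypertrophic, and cyclin D1 is known as a gene of the dividing zone.

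The HC libraries held 15246529 and 21866266 estimated counts, and the PC libraries 30373440 and 36644496. Both HC libraries were thus shallower than both PC libraries, and the members' own estimated counts ran between 143, for Cdk2 in HC replicate 3, and 18575, for Ccnd2 in PC replicate 1. At least 1 count was found for 17012 and 17945 genes in HC, against 21352 and 21154 in PC, and mitochondrial genes took 20.16% and 14.11% of the counts in HC, against 8.81% and 13.15% in PC. HC replicate 3 was unlike the rest in a further way: the gene model Gm10800 took 8.75% of its counts, against 2.67% in HC replicate 4 and 1.75% and 2.39% in PC. The labels of both groups fitted their markers in direction: the 9 hypertrophic markers tested, among them Col10a1 and Ihh, summed to 34577 and 42207 CPM (estimated counts scaled to library size) in HC and to 552 and 1994 CPM in PC. By edgeR 4 of the 9 passed, all higher in HC, where 2.75% of all genes tested were called higher. The 10 markers of proliferating chondrocytes summed to 22379 and 30174 CPM in HC, against 45643 and 34811 CPM in PC. In 9 of the 10, both HC libraries lay below both PC libraries, a pattern found in 33.3% of all genes tested. Only 1 of the 10, Sox5, passed, lower in HC, where 1.96% of all genes tested were called lower. The proliferation marker Mki67 had 366 and 104 CPM in HC and 1151 and 1481 CPM in PC, so HC replicate 3 held more of it than HC replicate 4. The sums of markers of other cell types were also higher in HC. Those of osteoblasts summed to 13239 and 4520 CPM in HC and to 696 and 1182 CPM in PC, with Bglap2 at 0 in HC. By edgeR 0 of 6 osteoblast markers passed. At an unadjusted p of 0.05, 5 were higher, where the share of all genes tested was 12.7%. Endothelial markers summed to 247 and 132 CPM in HC and to 25.4 and 22.9 CPM in PC (2 of 7 passed), with Cldn5 at 0 in PC. Macrophage and osteoclast markers summed to 209 and 96.2 CPM in HC and to 14.7 and 20.3 CPM in PC (2 of 8 passed), with C1qa at 0 in HC. Red blood cell markers summed to 332 and 306 CPM in HC and to 24.9 and 43.2 CPM in PC (4 of 7 passed), with Hba-x at 0 in HC. Muscle markers summed to 284 and 65.6 CPM in HC and to 16.8 and 23.6 CPM in PC (1 of 6 passed), with Myod1 at 0 in HC. Perichondrial and fibroblast markers summed to 339 and 273 CPM in HC and to 185 and 170 CPM in PC (2 of 7 passed, both higher). In that list Scx and Mkx went the other way, below both PC libraries in both HC libraries, without passing (unadjusted p of 0.0180 and 0.0155). In all but the red blood cell and perichondrial sums, HC replicate 3 lay well above HC replicate 4. The marker lists, the number of genes found, the mitochondrial share and HC replicate 3 move with the comparison, and their part in the results below was not tested.

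Promoter windows of 6 of the 10 genes were held in the RefSeq table (build GRCm38.p6), each running from 250 bases before an annotated start to 50 bases after it. There was none for Ccnd1, Ccnd2, Ccne2 and Ccna2. The windows of Cdk4 and Cdk6, the kinases that share the D-type cyclins as partners, are shown with those of Cdk2, their counterpart for the E and A cyclins, and Cdc25a, the phosphatase. Capitals mark matches, on either strand, to an E2F motif (TTTGGCGC, TTTGCCGC, TTTCGCGC or TTTCCCGC) and to the GC box of Sp-family factors (GGGCGG). The sequences run 5′ to 3′ on the strand of the gene.
Cdk4, chr10:127063285-127063584, plus strand: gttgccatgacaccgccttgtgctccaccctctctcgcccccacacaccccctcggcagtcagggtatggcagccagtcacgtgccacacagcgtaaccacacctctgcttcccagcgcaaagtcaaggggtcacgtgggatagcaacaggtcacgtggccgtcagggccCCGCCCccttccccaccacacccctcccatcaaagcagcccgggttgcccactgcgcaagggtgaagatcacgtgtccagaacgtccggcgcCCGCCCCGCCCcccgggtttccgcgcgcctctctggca
Cdk6, chr5:3343643-3343942, plus strand: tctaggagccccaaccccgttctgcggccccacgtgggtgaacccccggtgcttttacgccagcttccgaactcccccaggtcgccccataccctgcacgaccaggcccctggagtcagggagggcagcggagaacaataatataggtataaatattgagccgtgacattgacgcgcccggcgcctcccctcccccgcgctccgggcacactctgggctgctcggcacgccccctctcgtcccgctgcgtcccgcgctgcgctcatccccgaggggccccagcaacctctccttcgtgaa
Cdk2, chr10:128705002-128705301, minus strand: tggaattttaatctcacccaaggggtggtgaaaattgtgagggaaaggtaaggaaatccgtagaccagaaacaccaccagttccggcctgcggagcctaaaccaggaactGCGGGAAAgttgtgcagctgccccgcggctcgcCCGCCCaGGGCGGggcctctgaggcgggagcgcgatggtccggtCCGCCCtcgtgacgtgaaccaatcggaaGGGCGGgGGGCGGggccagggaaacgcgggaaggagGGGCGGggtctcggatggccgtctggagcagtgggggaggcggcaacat
Cdc25a, chr9:109875329-109875628, plus strand: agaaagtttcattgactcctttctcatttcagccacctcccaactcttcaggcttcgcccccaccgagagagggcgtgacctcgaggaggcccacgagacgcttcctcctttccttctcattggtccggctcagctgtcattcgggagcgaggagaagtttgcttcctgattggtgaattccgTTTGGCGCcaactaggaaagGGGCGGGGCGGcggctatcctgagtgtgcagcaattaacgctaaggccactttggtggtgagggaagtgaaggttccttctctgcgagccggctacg

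The Cdc25a window held 1 E2F match, TTTGGCGC at position -67 relative to the start, and 2 GC boxes that run together. The Cdk2 window held 1 E2F match at position -140, which reads GCGGGAAA on the printed strand, and 6 GC boxes. The Cdk4 window held 3 GC boxes and no E2F match, and the Cdk6 window neither motif. The windows not shown, 1 of Ccne1 and 2 of Ccnd3, held 4, 2 and 2 GC boxes and no E2F match. No E2F match overlapped a GC box. Of 32851 mouse promoter windows of 300 bases in the same table, 2.26% held such an E2F match and 35.7% a GC box. A match is a string of letters and not a shown binding site.

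Most of the G1 and S phase genes were lower in hypertrophic than in proliferating chondrocytes, by amounts between 1.41-fold and 5-fold apart from Cdk6, but few of them passed the test across all genes. Ccnd1 and Ccna2 fell, and none rose. The fitted log2 fold change of HC over PC was negative for 9 of the 10 genes, against 51.3% of all genes tested, and its median over the 10 was -1.08, against -0.04 over all genes tested. In 8 of the 10 genes both HC libraries lay below both PC libraries, a pattern found in 33.3% of all genes tested, while 0 had both HC libraries above, a pattern found in 27.7%. The groups overlapped for Cdk6 and Ccne2. At an adjusted p of 0.05 (edgeR's quasi-likelihood F-test, Benjamini-Hochberg over the 16607 genes) 2 of the 10 were lower in HC, where 1.96% of all genes were called lower, and 0 were higher, where 2.75% were called higher. At an unadjusted p of 0.05, 6 of the 10 were lower, where the share of all genes was 14.4%, and 0 were higher, where it was 12.7%. DESeq2 called 4 of the 10 lower, where it called 8.84% of all genes lower, and 0 higher, where it called 9.94% higher, while with library size alone as the scaling, or by limma on log2(TPM + 1), 0 of the 10 and no gene of the whole table passed. In the edgeR fit the smallest adjusted p of any gene was 0.0359, close to the threshold. With any library left out, the same 9 estimates stayed negative. That of Ccnd1 lay between -1.77 and -1.72, and that of Ccna2 between -2.86 and -1.99. Those of Ccne1 and Ccne2 moved more, from -2.46 to -0.46 and from -2.14 to -0.17. In bulk tissue, fewer cells in cycle and less of each RNA per cell cannot be told apart.

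**Figure D1:**
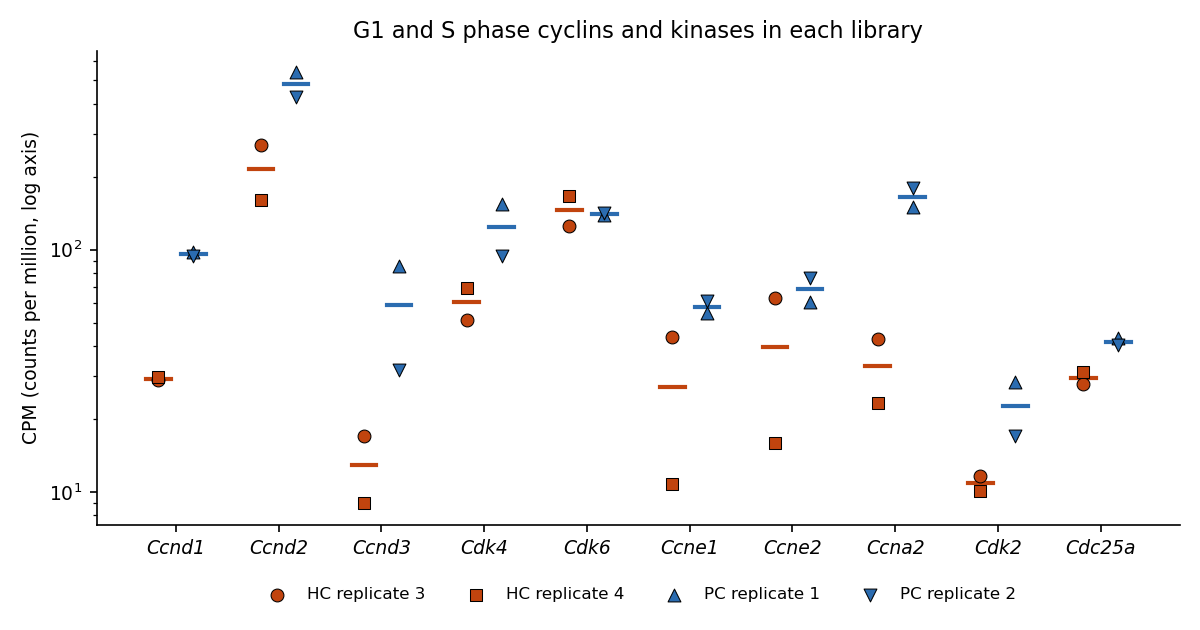
CPM of the 10 genes in each library on a log axis, with HC to the left of PC for every gene; each symbol is a library and each bar the mean of its group of 2. Both HC libraries lie below both PC libraries for 8 genes, and the groups overlap for Cdk6 and Ccne2, whose HC libraries are 125 and 167 CPM and 63.2 and 15.9 CPM.

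Of the D-type cyclins, Ccnd1 fell and the other two were lower without passing. Ccnd1 (ENSMUSG00000070348, chromosome 7, 144929931 to 144939925 on the minus strand of GRCm38) encodes cyclin D1, which growth signals induce. It had 29.1 and 29.7 CPM in HC, against 98.0 and 94.2 CPM in PC. The libraries of each group nearly coincided, and the groups were far apart. The means were 29.4 ± 0.460 CPM in HC and 96.1 ± 2.69 CPM in PC (SD, n = 2 each), a 3.27-fold lower level in HC (log2 fold change -1.71 ± 0.28 SE, 95% interval -2.40 to -1.02, adjusted p = 0.0392). The call was lost without PC replicate 1 (adjusted p = 0.0925), with the estimate at -1.72. Ccnd1 also shares 1100 exonic bases with LTO1, a gene on the opposite strand, and 22.3% of its 31-base words occur in that gene. LTO1 was given 320 and 423 estimated counts in HC and 191 and 274 in PC, next to 358 and 660 for Ccnd1 in HC and 3371 and 3627 in PC. These counts are not scaled to library size, and both HC libraries were shallower. They therefore understate both genes in HC relative to PC. With the counts of both genes added, the log2 fold change was -0.98 and no longer passed (adjusted p = 0.0959).

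Ccnd2 (chromosome 6, 127125162 to 127152193, minus strand), which encodes cyclin D2, had 271 and 161 CPM in HC, against 540 and 428 CPM in PC. Both HC libraries were below both PC libraries, with a 1.69-fold gap between the HC libraries themselves. The log2 fold change of -1.17 ± 0.38 SE (95% interval -2.10 to -0.24) had an adjusted p of 0.120. With a library left out, it lay between -1.63 (without HC replicate 3) and -0.88 (without HC replicate 4). Ccnd3 (chromosome 17, 47505051 to 47599691, plus strand), which encodes cyclin D3, had 17.0 and 9.004 CPM in HC, against 86.0 and 32.0 CPM in PC. PC replicate 1 was high, at 2.69 times PC replicate 2, and the groups did not overlap. Its log2 fold change, -2.19 ± 0.59 SE (95% interval -3.64 to -0.74), was larger than that of Ccnd1 but came with a wider spread (adjusted p = 0.0881). Ccnd3 shares 361 exonic bases with Bysl on the opposite strand. Bysl was given 162 and 323 estimated counts in HC and 1107 and 1110 in PC. These are not scaled to library size either, so they overstate the gap between the groups. The sum of both genes gave a log2 fold change of -1.74 (adjusted p = 0.0715). Leaving out PC replicate 2, HC replicate 3 or HC replicate 4 gave Ccnd3 estimates of -2.76, -2.74 and -1.84. Without PC replicate 1 the Ccnd3 estimate was -1.34.

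The make-up of the D-type cyclins was led by Ccnd2 in every library. On the length-corrected TPM scale, Ccnd1, Ccnd2 and Ccnd3 together held 94.1 and 99.0 TPM in HC, against 454 and 283 TPM in PC. Ccnd2 made up 72.4% and 73.6% of that sum in HC and 54.6% and 65.3% in PC. Ccnd3 made up 20.2% and 16.1% in HC and 34.9% and 21.7% in PC, and Ccnd1 7.34% and 10.3% in HC and 10.5% and 13.1% in PC. By TPM the Ccnd2 share was thus higher, and the Ccnd3 and Ccnd1 shares lower, in both HC libraries than in both PC libraries. For Ccnd1 the groups overlapped by estimated counts, with 9.17% and 14.9% in HC and 13.5% and 17.0% in PC. With 2 libraries against 2, the smallest p that an exact two-sided permutation test can give is 0.333, so none of these shares can be shown to differ. TPM depends on which transcripts the reads were assigned to: without transcripts under 1000 bases, Ccnd2 held 77.0% and 70.4% in HC and 69.1% and 65.2% in PC, while Ccnd1 held 15.8% and 23.2% in HC and 18.1% and 26.5% in PC and overlapped.

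**Figure D2:**
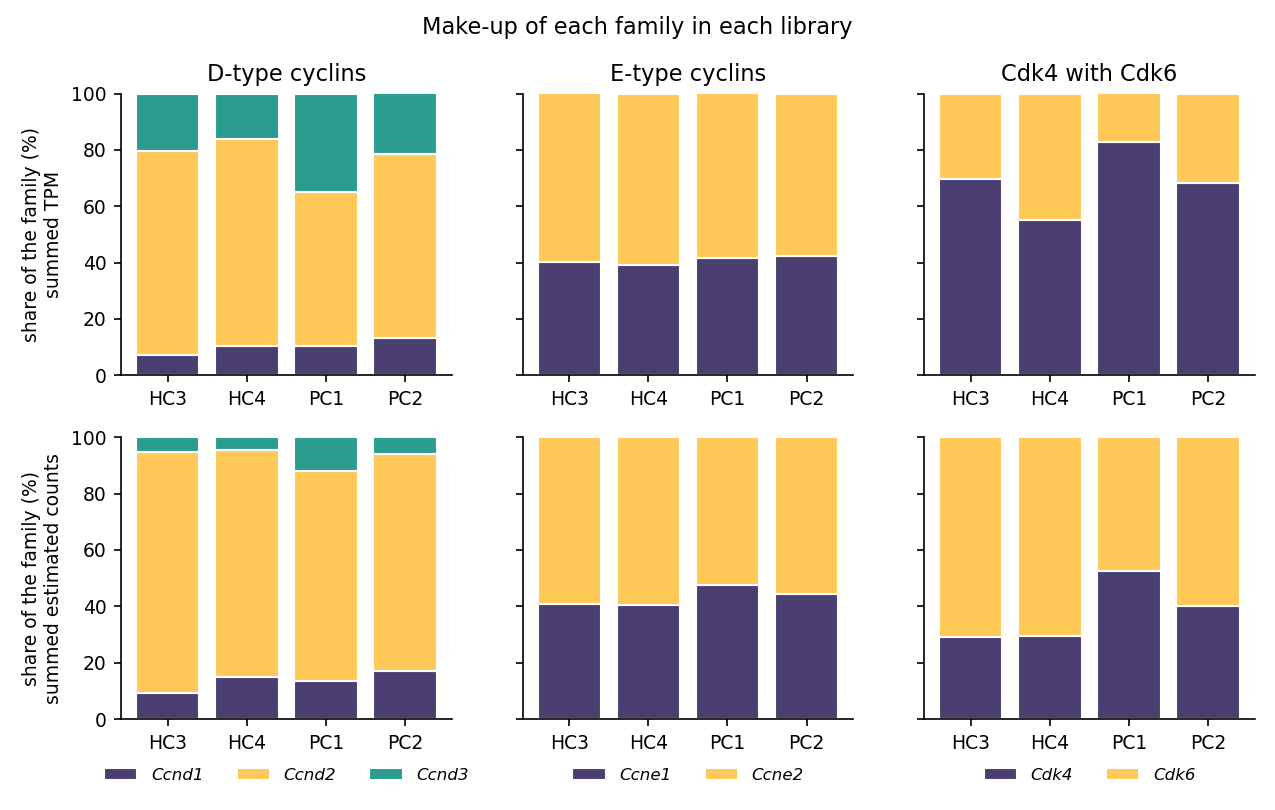
Share of each gene (%, stacked to 100) in its family in HC replicates 3 and 4 and PC replicates 1 and 2, from summed TPM (upper row) and from summed estimated counts (lower row). Ccnd2 is the largest part of the D-type cyclins in all 4 libraries, at 72.4% and 73.6% of TPM in HC and 54.6% and 65.3% in PC, and the Cdk6 part is larger in counts than in TPM, since its transcripts are long.

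Of the kinases that pair with the D-type cyclins, Cdk4 was lower in both HC libraries than in both PC libraries without passing, and Cdk6 overlapped between the groups. Cdk4 (chromosome 10, 127063534 to 127067920, plus strand) had 51.4 and 69.7 CPM in HC, against 155 and 94.4 CPM in PC. The groups did not overlap, though the PC libraries were 1.64-fold apart. The log2 fold change was -1.04 ± 0.37 SE (95% interval -1.94 to -0.14, adjusted p = 0.143). With a library left out, it lay between -1.38 (without PC replicate 2) and -0.68 (without PC replicate 1). Cdk4 shares 641 exonic bases with Tspan31 on the opposite strand, and the sum of both genes gave a log2 fold change of -0.995. Cdk6 (chromosome 5, 3341485 to 3531008, plus strand) had 125 and 167 CPM in HC, against 139 and 142 CPM in PC. HC replicate 3 lay below and HC replicate 4 above both PC libraries, so the groups overlapped. Its log2 fold change was 0.06 ± 0.30 SE (adjusted p = 0.921), with a 95% interval of -0.68 to 0.79 that leaves room for a change of moderate size either way. It passed in none of the 13 alternative settings, and its sign was negative in 5 of them.

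Within the Cdk4 and Cdk6 pair, Cdk6 took 70.9% (95% Wilson interval 69.0 to 72.8) and 70.6% (69.3 to 71.8) of the estimated counts in HC, against 47.4% (46.4 to 48.4) and 60% (59.0 to 61.0) in PC. Both HC libraries lay above both PC libraries by more than counting error, which is all that these intervals cover, and the HC libraries agreed closely. The exact permutation p of this difference was 0.333, the smallest possible. On the TPM scale the Cdk6 share was 30.3% and 44.9% in HC and 17.1% and 31.8% in PC. There the groups overlapped (permutation p = 0.667), since HC replicate 3 lay below PC replicate 2.

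**Figure D3:**
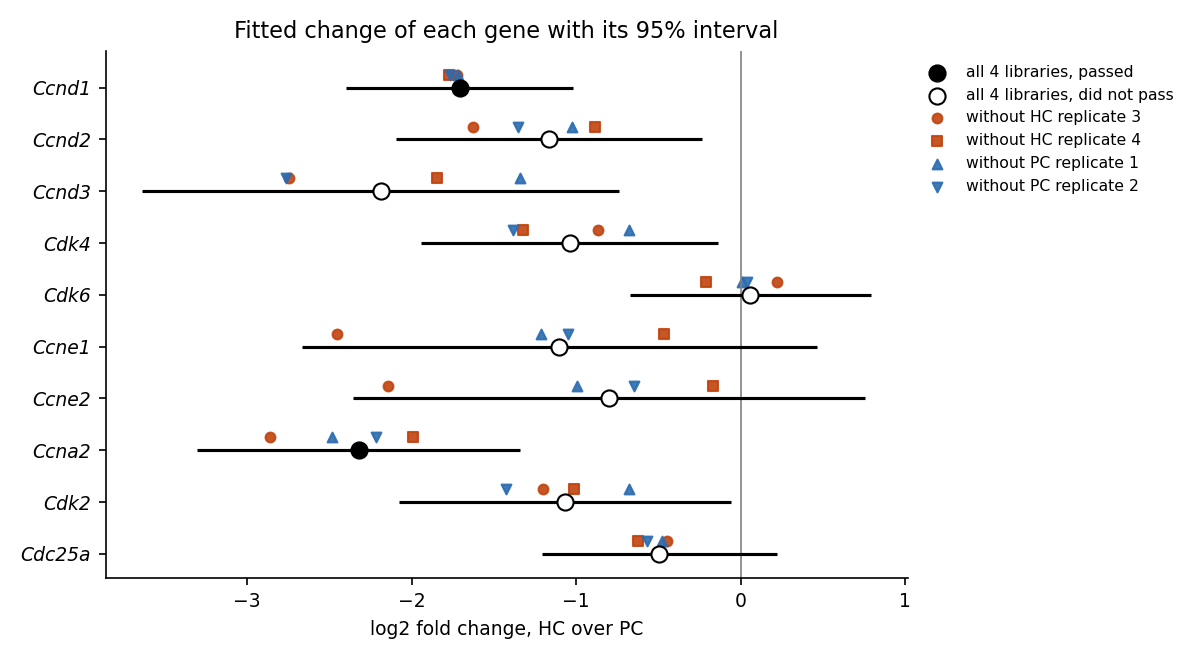
Fitted log2 fold change of HC over PC for each gene with its 95% interval; filled circles passed at an adjusted p of 0.05, open circles did not, and the small symbols above each circle show the estimate with 1 library left out. The intervals of Ccnd1 (-2.40 to -1.02) and Ccna2 (-3.30 to -1.34), which passed, lie below 0. Those of Ccnd2, Ccnd3, Cdk4 and Cdk2, which did not pass, also lie below 0. The estimates of Ccne1 and Ccne2 move to -2.46 and -2.14 without HC replicate 3.

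The E-type cyclins, which bind Cdk2 at the entry into S phase, differed more between the HC libraries than between the groups. Ccne1 (chromosome 7, 38097984 to 38107534, minus strand) had 43.4 and 10.8 CPM in HC, against 54.8 and 61.1 CPM in PC. HC replicate 3 held 4.02 times as much as HC replicate 4 and came close to the PC libraries. The log2 fold change was -1.10 ± 0.64 SE (95% interval -2.67 to 0.46, adjusted p = 0.329). Ccne2 (chromosome 4, 11191351 to 11204779, plus strand) had 63.2 and 15.9 CPM in HC, against 60.6 and 76.8 CPM in PC. HC replicate 3 lay between the PC libraries, at 3.97 times HC replicate 4, so the groups overlapped. The log2 fold change was -0.80 ± 0.63 SE (95% interval -2.36 to 0.75, adjusted p = 0.472). The estimates of Ccne1 and Ccne2 were -2.46 and -2.14 without HC replicate 3, and -0.46 and -0.17 without HC replicate 4. With 1 HC library left, the spread comes from PC alone, so no call is drawn from these fits. HC replicate 3 is also the HC library with more Mki67 and higher sums of the markers of osteoblasts, endothelium, macrophages and muscle. On the log2 scale these gaps were 1.96 for both genes, against a median gap between the HC libraries of 0.66 over all genes tested. Ccne2 shares 609 exonic bases with Ints8 on the opposite strand, and the sum of both gave a log2 fold change of -0.07 (adjusted p = 0.912).

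Much of the E-cyclin signal was assigned to short annotated transcripts. Ccne1-201, the full-length coding transcript, had 153 and 135 estimated counts in HC, against 1354 and 1143 in PC. Ccne1-204, of 608 bases, had 380 and 66.4 in HC, against 397 and 1045 in PC. These counts are not scaled to library size, and both HC libraries were shallower, so they understate both transcripts in HC relative to PC. In CPM, over all Ccne1 transcripts under 1000 bases, HC replicate 3 lay above PC replicate 1 (15.4 CPM) and just below PC replicate 2 (31.5 CPM). HC replicate 4 lay below both PC libraries, at 4.74 CPM. The high Ccne1 value of HC replicate 3 thus rested mainly on the short transcript, while the full-length transcript was low in both HC libraries. Over transcripts of at least 1000 bases, Ccne1 had 12.4 and 6.05 CPM in HC, against 39.4 and 29.7 CPM in PC, with a log2 fold change of -1.85 that did not pass (adjusted p = 0.0843). Ccne2 over such transcripts had 34.4 and 10.3 CPM in HC, against 42.3 and 47.6 CPM in PC. On that measure the Ccne2 groups no longer overlapped, but the log2 fold change of -0.955 did not pass (adjusted p = 0.368). The split at 1000 bases was chosen after the data were seen, and how surely reads were assigned to any given transcript is unknown.

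**Figure D4:**
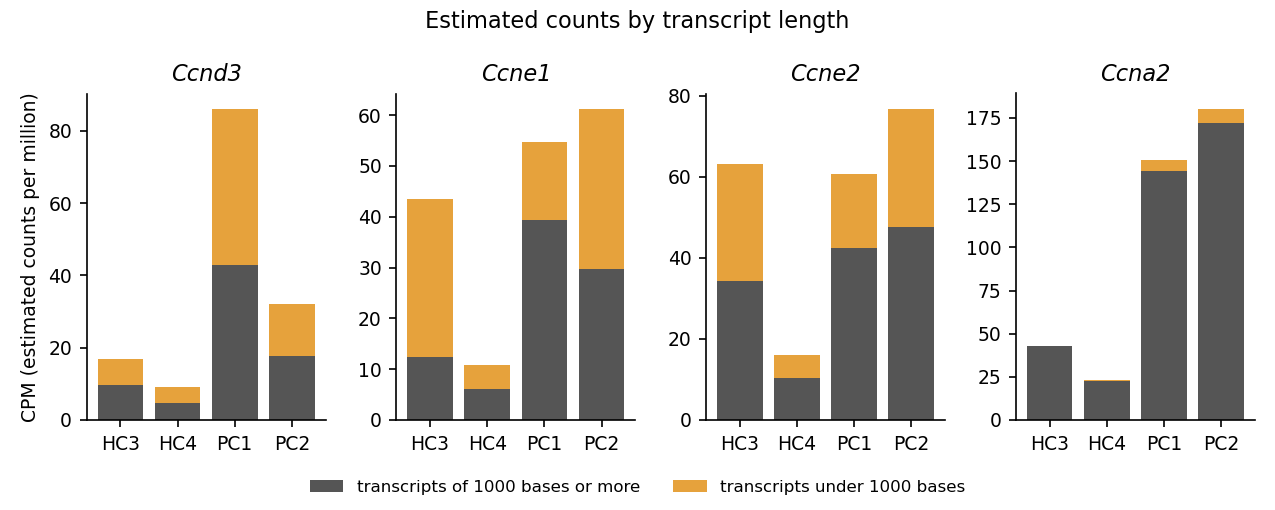
CPM of 4 cyclins in HC replicates 3 and 4 and PC replicates 1 and 2, split into transcripts of 1000 bases or more (grey) and shorter ones (orange); the vertical scale differs between panels. The grey part of Ccne1 is 12.4 and 6.05 CPM in HC and 39.4 and 29.7 CPM in PC, and Ccna2 is almost wholly grey.

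Ccna2 (ENSMUSG00000027715, chromosome 3, 36564865 to 36572150, minus strand) encodes cyclin A2, the partner of Cdk2 in S phase and of Cdk1 later. It had 42.9 and 23.2 CPM in HC, against 150 and 180 CPM in PC. Every HC value was under every PC value by a margin well beyond the gaps within groups. The means were 33.1 ± 13.9 CPM in HC and 165 ± 21.3 CPM in PC (SD, n = 2 each), and Ccna2 fell 5-fold (log2 fold change -2.32 ± 0.40 SE, 95% interval -3.30 to -1.34, adjusted p = 0.0411). With a library left out, the estimate lay between -2.86 and -1.99. Ccna2 also passed when the counts of Exosc9, which shares 510 exonic bases on the opposite strand, were added (-1.95, adjusted p = 0.0376). Over transcripts of at least 1000 bases the value was -2.22 and just missed the threshold (adjusted p = 0.0538). The Ccna2 transcript of 1719 bases that is annotated as a target of nonsense-mediated decay was given 207 and 382 of the 529 and 516 estimated counts in HC, and 2865 and 4487 of the 5168 and 6944 in PC.

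Cdk2 (chromosome 10, 128697939 to 128705031, minus strand), the kinase that the E and A cyclins activate, had 11.6 and 10.1 CPM in HC, against 28.5 and 17.0 CPM in PC. The groups did not overlap, and PC replicate 1 stood above the rest. The log2 fold change was -1.07 ± 0.41 SE (95% interval -2.08 to -0.06, adjusted p = 0.166). Cdc25a (chromosome 9, 109875579 to 109893895, plus strand) had 27.9 and 31.2 CPM in HC, against 43.1 and 40.3 CPM in PC. Its libraries agreed within each group, and the gap between groups was small. The log2 fold change was -0.49 ± 0.29 SE (95% interval -1.21 to 0.22, adjusted p = 0.337). Neither gene passed in any of the 13 alternative settings, and the sign was negative in all 13 for both.

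Levels can be set side by side between genes only per length, on the TPM scale. In HC, Ccnd2 had the highest mean, at 70.5 ± 3.25 TPM (SD, n = 2 here and below), followed by Ccne2 at 56.4 ± 38.7, Cdk4 at 38.5 ± 20.7, Ccne1 at 37.5 ± 26.8 and Cdk6 at 26.8 ± 23.2. The spreads of these overlap with those of their neighbours, so their order in HC is not settled. Next came Ccnd3 at 17.5 ± 2.17 TPM, Ccna2 at 16.4 ± 0.954, Cdc25a at 9.15 ± 3.98, Ccnd1 at 8.56 ± 2.33 and Cdk2 at 6.14 ± 1.61. Cdk6, Ccnd3 and Ccna2 did not differ beyond their spread, nor did Cdc25a, Ccnd1 and Cdk2. In PC, Ccnd2 again led, at 216 ± 44.7 TPM, followed by Ccne2 at 143 ± 21.98, Ccna2 at 133 ± 8.09, Cdk4 at 132 ± 76.7, Ccnd3 at 110 ± 68.6 and Ccne1 at 104 ± 18.3. Both Ccnd2 libraries lay above both Ccne2 libraries, and from Ccne2 down to Ccne1 neighbours did not differ beyond their spread. Ccnd1 at 42.3 ± 7.65 TPM and Cdk6 at 37.3 ± 1.68 also overlapped, and Cdc25a at 19.5 ± 5.21 and Cdk2 at 13.8 ± 6.09 came last, within each other's spread.

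Short transcripts weigh heavily in these TPM sums. They held 83.4% and 82.4% of the Ccnd3 TPM in HC and 78.8% and 81.7% in PC, and 88.3% and 84.2% of the Ccne2 TPM in HC and 82.0% and 85.9% in PC. Without them the E-type cyclins and Ccnd3 came low: Ccne2 averaged 7.21 ± 3.72 TPM in HC and 22.7 ± 0.355 TPM in PC, Ccne1 4.65 ± 0.873 TPM in HC and 26.6 ± 7.87 TPM in PC, and Ccnd3 2.99 ± 0.251 TPM in HC and 22.4 ± 15.8 TPM in PC. The highest means in HC were then those of Cdk4 (33.6 ± 18.2 TPM), Ccnd2 (32.4 ± 1.99 TPM), Cdk6 (21.8 ± 16.1 TPM) and Ccna2 (15.7 ± 0.0679 TPM). Those in PC were Ccnd2 (135 ± 66.0 TPM), Ccna2 (119 ± 7.44 TPM) and Cdk4 (89.3 ± 32.5 TPM). The spreads of Cdk4, Ccnd2 and Cdk6 overlap in HC, as do those of Ccnd2, Ccna2 and Cdk4 in PC, so the order among them is not settled.

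The genes around these cyclins and kinases were read in 6 lists. Of all genes tested, edgeR called 1.96% lower and 2.75% higher, and DESeq2 called 8.84% lower and 9.94% higher. At an unadjusted p of 0.05 by edgeR, 14.4% were lower and 12.7% higher. Among other cyclins and cell cycle kinases, 1 of 7 fell, 0 rose, and the median log2 fold change was -1.77. The gene that fell was Cdk1, the mitotic kinase, with 10.6 and 6.84 CPM in HC, against 32.7 and 33.4 CPM in PC (-1.93 ± 0.38 SE, adjusted p = 0.0498). That call was lost without PC replicate 1 (adjusted p = 0.116) or PC replicate 2 (adjusted p = 0.103). DESeq2 called 4 of the 7 lower. A list of 8 held phosphatases and kinases that act on cyclin-dependent kinases, with partners of such a kinase (Ccnh and Mnat1). None passed by edgeR's quasi-likelihood test, though 2 were lower at an unadjusted p of 0.05 and DESeq2 called 2 lower. The median was -1.71. Wee1, which adds the inhibitory phosphate that Cdc25 enzymes remove, had 3.41 and 1.31 CPM in HC, against 16.6 and 15.52 CPM in PC (adjusted p = 0.0605). Cdc25b, the mitotic relative of Cdc25a, had 0.244 and 3.74 CPM in HC, against 21.2 and 16.1 CPM in PC (adjusted p = 0.125).

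Of 6 inhibitors of cyclin-dependent kinases, 1 rose and 0 fell, with a median of -0.75. Cdkn1a, which encodes p21 and holds cyclin and Cdk2 complexes inactive, had 63.5 and 122 CPM in HC, against 10.7 and 12.1 CPM in PC. Both HC libraries were several times above both PC libraries (3.03 ± 0.42 SE, adjusted p = 0.0359). With a library left out, the estimate lay between 2.44 (without HC replicate 4) and 3.39 (without HC replicate 3). Cdkn1c, which encodes p57, was abundant in every library, with 3317 and 2282 CPM in HC, against 2136 and 2638 CPM in PC, and the groups overlapped. It did not pass (adjusted p = 0.755) and is named because it is known in cartilage, after its values were seen.

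Of 19 genes of the retinoblastoma family, the E2F factors and the DREAM complex, which represses cell cycle genes outside the cycle, 2 fell and 1 rose, with a median of -0.64. Rb1, the substrate of the D-cyclin kinases, had 51.0 and 40.8 CPM in HC, against 8.75 and 9.37 CPM in PC (2.34 ± 0.33 SE, adjusted p = 0.0359; 0.0547 without PC replicate 1). E2f1, an activating E2F, had 5.03 and 7.47 CPM in HC, against 43.1 and 46.0 CPM in PC (-2.83 ± 0.37 SE, adjusted p = 0.0359). Its dimer partner Tfdp1 had 46.0 and 35.4 CPM in HC, against 197 and 201 CPM in PC (-2.29 ± 0.31 SE, adjusted p = 0.0359). Rb1 was thus higher, and E2f1 and Tfdp1 lower, in both HC libraries. With a library left out, the estimates lay between -3.19 and -2.61 for E2f1 and between -2.52 and -2.16 for Tfdp1. DESeq2 called 6 of the 19 lower and 1 higher, where it called 8.84% of all genes lower and 9.94% higher.

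Of 15 ubiquitin ligase parts that turn over cyclins and their inhibitors, none passed by edgeR's quasi-likelihood test, while at an unadjusted p of 0.05 1 was higher and 2 were lower, and DESeq2 called 1 higher and 1 lower. The median was -0.08. Skp2, which marks the inhibitor p27 for destruction, had 24.1 and 10.3 CPM in HC, against 77.8 and 79.1 CPM in PC (-2.20, adjusted p = 0.0573). With a library left out, the Skp2 estimate lay between -2.97 (without HC replicate 3) and -1.75 (without HC replicate 4). Cul4b, a cullin scaffold, had 301 and 204 CPM in HC, against 43.3 and 80.7 CPM in PC (2.02, adjusted p = 0.0569). With a library left out, the Cul4b estimate lay between 1.61 (without PC replicate 1) and 2.51 (without PC replicate 2). Of 18 transcription factors that are known inputs of D-type cyclins, 3 fell and 1 rose, with a median of 0.12. DESeq2 called 4 lower and 5 higher, where it called 8.84% of all genes lower and 9.94% higher. With a length offset, edgeR called 0 of the 18 either way. Gli1, which Hedgehog signals switch on, had 0.244 and 0.675 CPM in HC, against 43.7 and 26.04 CPM in PC (-6.14 ± 0.64 SE, adjusted p = 0.0359; -7.18 without HC replicate 4). Gli2, a further transcription factor of that pathway, had 36.0 and 19.0 CPM in HC, against 159 and 114 CPM in PC (-2.31 ± 0.42 SE, adjusted p = 0.0458). Both of these were lower in each HC library than in each PC library. Gli3, the Gli factor best known as a repressor, was high in HC replicate 3 alone, with 11277 and 763 CPM in HC, against 233 and 785 CPM in PC, and the groups overlapped. It did not pass (3.57, adjusted p = 0.152) and is named after its values were seen. Myc, a growth factor-responsive activator, had 30.7 and 46.9 CPM in HC, against 242 and 128 CPM in PC (-2.25 ± 0.44 SE, adjusted p = 0.0496; 0.0684 without PC replicate 1). Tcf7l2, which acts with beta-catenin in Wnt signalling, had 635 and 1241 CPM in HC, against 177 and 209 CPM in PC (2.28 ± 0.43 SE, adjusted p = 0.0479; 1.67 without HC replicate 4).

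**Figure D5:**
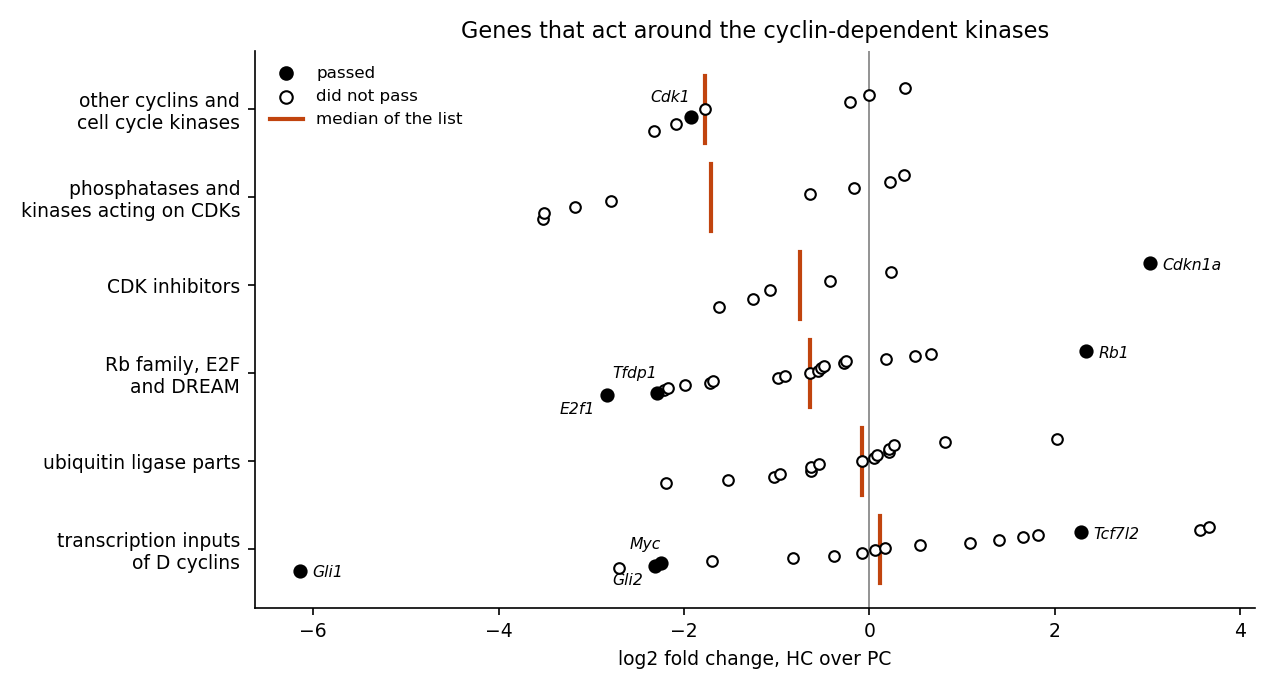
Log2 fold change of HC over PC (horizontal axis) for the tested genes of 6 lists that act around the cyclin-dependent kinases; filled points passed at an adjusted p of 0.05, open points did not, and the vertical bar is the median of the list. Cdkn1a (3.03), Rb1 (2.34) and Tcf7l2 (2.28) lie to the right, and Cdk1, E2f1, Tfdp1, Gli1, Gli2 and Myc to the left.

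Genes with the profile most like the members that fell were looked for by the root mean square difference of log2(CPM + 0.5), centred on each gene, over the 4 libraries. Closest to Ccnd1 was Pms2, a DNA mismatch repair gene, with 7.31 and 7.11 CPM in HC, against 24.3 and 23.7 CPM in PC (difference 0.0275). Next was Phactr3, at 0 CPM in both HC libraries and at 1.08 and 1.06 CPM in PC (difference 0.0286), whose low values make the likeness depend on the added 0.5. Closest to Ccna2 was Exo1, an exonuclease of DNA repair, with 8.36 and 4.14 CPM in HC, against 29.4 and 32.7 CPM in PC (difference 0.0554). Next was Atp1b2, a subunit of the sodium pump, with 19.0 and 10.1 CPM in HC, against 72.7 and 77.2 CPM in PC (difference 0.0643). These likenesses describe 4 libraries and were not tested.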

How the data were processed

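Reads were trimmed with Trimmomatic 0.36 and assigned with kallisto 0.43.1, with mm10 as the build, per the submitters' processing notes. The deposited tables give, per the file headers, an estimated count and a TPM value per transcript as the authors made them. An estimated count is a share of reads assigned by likelihood, and TPM corrects for transcript length and keeps no depth. The strand setting was not stated in them, so reads of genes overlapping on opposite strands may be shared. RNA came from a column kit for small amounts, and libraries from a kit for degraded RNA, per the labels' protocols.

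Of 109282 transcripts, 107987 matched GENCODE M21 (GRCm38) and were summed to 34547 genes; the other 1295 stayed out. Coordinates are counted from 1. Estimated counts were rounded to whole numbers, filtered with filterByExpr, which left 16607 genes, and scaled by the trimmed mean of M values (TMM). CPM values use that scaling. The test was edgeR 4.0.16's quasi-likelihood F-test, HC over PC, adjusted by Benjamini-Hochberg over all genes tested. It was also run on simulated data, but the outcome is not given here and no support is drawn from it. Standard errors were derived from the coefficient and the F statistic. DESeq2 1.42.0 and limma 3.58.1 in R 4.3.3 were alternatives, beside other scalings and filters and each library left out. Intervals of shares are 95% Wilson intervals and cover error of counting alone, because reads amplified by PCR are no independent molecules. Sums and plots were made in Python 3.11.15 with matplotlib 3.10.9, pandas 2.3.3, SciPy 1.17.1 and NumPy 2.4.6.

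The members, the 6 lists and the marker lists were chosen with earlier results of these data known. Named from each list was every gene that passed or, where none did, the 2 with the smallest unadjusted p. For each member that passed, the 2 protein-coding genes of closest profile were also named. Ccna1, Ccnb3, Cdkn2a, Cdkn2b and Skp1 had no tested row under those symbols.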

Additional observations from a re-analysis of the deposited data

How the results depend on the processing

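No paired analysis was possible because the groups share no replicate number. No member was called higher under any of the 13 alternatives, and 9 of the 10 kept a negative estimate in all of them. Against 2 members called lower, there were 0 with library size alone, 0 by limma on log2(TPM + 1) or log2(TPM + 0.1), and 4 by DESeq2. There were 1 with overlapping genes added and 1 without transcripts under 1000 bases, both chosen after seeing the data. Leaving out each library gave 1 to 6. Cdk6 turned negative with library size alone (-0.18, median of all genes -0.29), by limma on log2(TPM + 1) (-0.77, median -0.48) and log2(TPM + 0.1) (-0.81, median -0.60), with a length offset (-0.19, median -0.03) and without HC replicate 4 (-0.21, median -0.21; estimates from -0.21 to 0.22 over the libraries left out). With library size alone and without HC replicate 4, Cdk6 thus lay at or above the median of all genes, and for the other settings the cause was not tested. Against 325 genes lower and 457 higher, there were 0 and 0 with library size alone and by limma on either TPM scale, 1468 and 1651 by DESeq2, 965 and 963 with no filter on low counts, and 165 and 268 with a length offset. Without transcripts under 1000 bases, 200 were lower and 310 higher. Leaving out each library gave 257 to 3775 lower and 379 to 3331 higher; with 1 library in a group, its spread is assumed to be that of the other. Without HC replicate 3 or HC replicate 4, many more genes of the whole table were called lower than with all libraries. The range of members called lower with a library left out thus comes with a shift in the whole table, and no call is drawn from it. The Ccne2 share of E-type cyclins was 2.47 points higher in HC by TPM, 5.32 by estimated counts and 12.5 by TPM without transcripts under 1000 bases. Depth limits the genes with few counts, of which Cdk2 had the fewest.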
